A study of Danio rerio with 8 samples.

Results

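The 10 photoreceptor fate transcription factors *crx*, *otx5*, *otx2b*, *nr2e3*, *nrl*, *rorb*, *six7*, *prdm1a*, *thrb* and *tbx2b* were followed by RNA-seq in eyes of zebrafish embryos at 36 hours post fertilization (hpf). They were found by symbol on chromosomes 1 to 25 among the 37114 gene rows of 1 expression table, and each symbol gave 1 row. The design sets 4 libraries labelled *flrt2*-KO against 4 WT libraries. The mutation is a short deletion in *flrt2*, the gene of a cell surface adhesion and axon guidance protein, made by CRISPR/Cas9. The study describes its KO fish as homozygous (*flrt2*-/-) and used a single mutant line, while the sample labels give the genotype only as mutant. The titles of the WT libraries name the AB strain, and the study bred its mutant line in an AB background. Each library came from about 40 pooled eyes, so replicates are pools of embryos and p-values measure the spread between these pools. The labels name the tissue as retina, while the methods of the study name whole eyes.

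In the vertebrate retina, a progenitor that leaves the cell cycle becomes a photoreceptor when Otx homeodomain proteins are switched on, with Otx2 first and Crx after it in the mouse. Nuclear receptors and the Maf family protein Nrl then divide the photoreceptors into rods and cones, and further factors divide the cones by the opsin they carry. Zebrafish build 1 rod type and several cone types in this way, and most opsin and phototransduction genes are switched on only after the fate factors. The 10 genes stand at different points of this order, and their levels at 36 hpf describe eyes in which photoreceptor differentiation is only beginning.

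Levels are given in FPKM, fragments scaled to transcript length and to the size of the library, which allows levels to be compared between genes. Multiplied by gene length, the deposited values gave back whole reads, 13423932 to 14744977 per KO-labelled library and 14394658 to 14835885 per WT library. Fold changes and adjusted p-values are from limma on log2(FPKM + 0.5), over the 21012 rows that reached 0.5 FPKM in 4 or more of the 8 libraries. Calls were made where the adjusted p was under 0.05.

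The mRNA of the targeted gene did not check the genotype labels. *flrt2* had 2.90, 3.99, 2.80 and 3.80 FPKM in the libraries labelled *flrt2*-KO, against 2.48, 2.33, 2.25 and 2.55 FPKM in the WT libraries. Every KO-labelled value was above every WT value (exact permutation test, two-sided, p = 0.0286, the smallest that 4 against 4 libraries allow), and the log2 fold change of 0.40 ± 0.15 (SE) was not called by limma (adjusted p = 0.110). The study instead reports lower *flrt2* mRNA in its mutants, measured by quantitative PCR in brains at an earlier age. The values here run in the opposite direction, but tissue, age and method differ. The FPKM values do not show the deletion itself, so the group is called by its label throughout.

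Of the 10 factors, 9 could be tested, 7 were lower in the KO-labelled libraries, 0 were higher and 2 were not called, while *tbx2b* did not pass the filter. Among all rows tested, 7.37% were called lower and 8.28% higher. The median log2 fold change of the 9 factors was -1.27, beside -0.01 over all rows. The 7 lower genes were *crx*, *six7*, *otx5*, *nr2e3*, *rorb*, *otx2b* and *thrb*. At an unadjusted p under 0.05, 1 factor was higher (*nrl*), and limma-voom on the recovered reads gave 7 lower and 0 higher. In 5 of the 9 (*crx* by its row on chromosome 5, *otx2b*, *rorb*, *six7* and *thrb*) every KO-labelled library lay below every WT library. This held for 9.76% of all rows. In bulk RNA from whole eyes, fewer photoreceptor precursors, less of each mRNA per precursor and a delay in development cannot be told apart. At the age sampled here, the study reports smaller eyes, shorter bodies and more apoptotic cells in the retina of its mutants. The study proposes that lower levels of *crx*, *rorb* and other regulators may be related to a somewhat delayed growth of the mutant eyes. The part of such a delay in the results for the 10 factors was not tested.

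**Figure D1:**
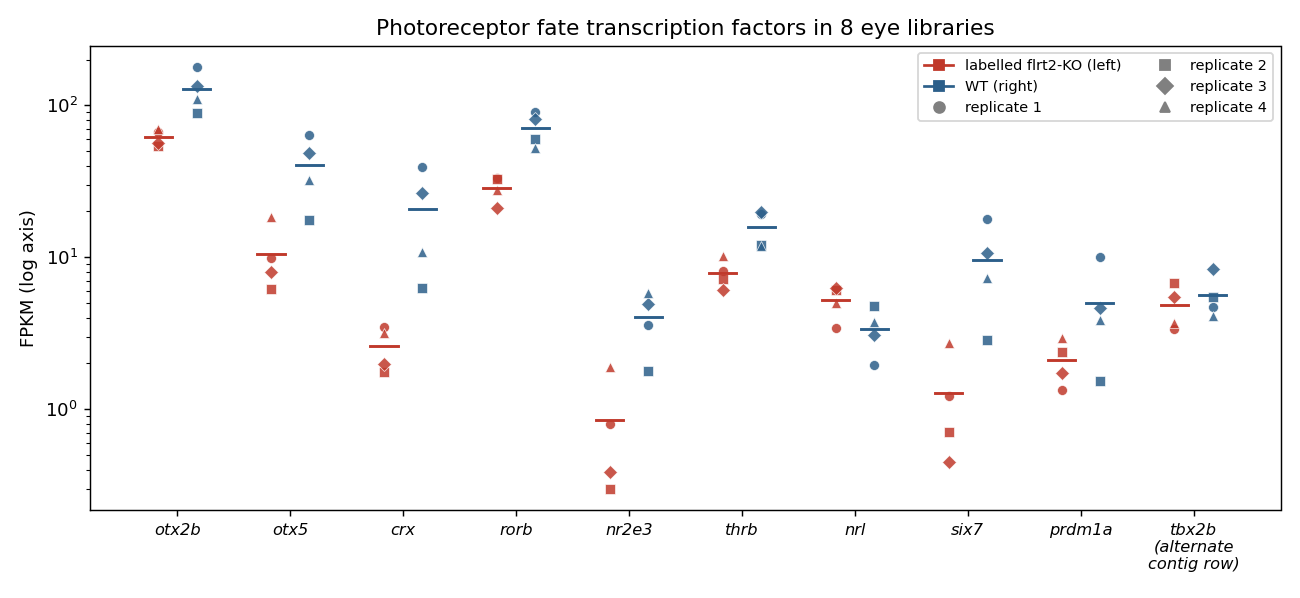
FPKM (log axis) in each library of the 9 tested factors and of a row of *tbx2b* on an alternate contig, described below. Libraries labelled *flrt2*-KO stand to the left of WT for each gene. Symbols show replicates 1 to 4, and a bar marks each group mean. *crx* is shown by its row on chromosome 5 alone, and its groups overlap when a contig row is added. The 2 groups are separate for *crx*, *otx2b*, *rorb*, *six7* and *thrb*, overlap in the others, and only *nrl* has its KO-labelled mean (5.19 FPKM) above its WT mean (3.38 FPKM).

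The Otx genes come first in the order of photoreceptor fate. *otx2b* (ENSDARG00000011235, GRCz11 chromosome 17, 44244659 to 44249720, minus strand) is a zebrafish counterpart of mouse Otx2, which starts photoreceptor fate and is also used in pigment epithelium and midbrain. It had 66.4, 53.6, 56.5 and 69.3 FPKM in the KO-labelled libraries, against 178.6, 89.6, 134.5 and 109.8 FPKM in the WT libraries. The WT values spread over a wider range than the KO-labelled ones, and the groups did not overlap. *otx2b* was lower by a log2 fold change of -1.01 ± 0.19 (SE), with a 95% interval of -1.44 to -0.59 and an adjusted p of 0.00534 (limma). An antisense gene, *CR936482.1*, overlaps the row of *otx2b* and averaged 1.56 FPKM, and the sources used here do not say whether reads were counted by strand.

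*otx5* (ENSDARG00000043483, chromosome 15, 47903864 to 47909281, plus strand) encodes an Otx protein of zebrafish photoreceptors and of the pineal organ, where it controls rhythmic genes. It had 9.87, 6.18, 7.93 and 18.3 FPKM in the KO-labelled libraries, against 63.3, 17.7, 48.6 and 32.2 FPKM in the WT libraries. Replicate 4 of the KO-labelled group lay just above replicate 2 of WT, and the other KO-labelled values lay below all WT values. Its log2 fold change was -1.85 ± 0.40 (SE; 95% interval -2.74 to -0.97; limma, adjusted p = 0.0108).

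*crx* (ENSDARG00000011989, chromosome 5, 36932718 to 36936443, plus strand) encodes the cone-rod homeobox protein, which switches on opsin and phototransduction genes of rods and cones. It had 3.47, 1.76, 1.99 and 3.16 FPKM in the KO-labelled libraries, against 39.2, 6.26, 26.4 and 10.8 FPKM in the WT libraries. The groups did not overlap, and the WT libraries themselves differed 6.26-fold between replicates 1 and 2. On the row of chromosome 5 the log2 fold change was -2.49 ± 0.48 (SE; 95% interval -3.56 to -1.42; limma, adjusted p = 0.00639). This call was lost when the reads of a second row of the same gene were added, as given next.

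GRCz11 carries alternate contigs, extra sequences of regions that differ between fish, and the table has separate rows for genes on them. One unnamed row of a chromosome 5 contig carried the same protein match and strand as *crx* and lay, like *crx*, between genes matching *kptn* and *h3f3c*. It held 62, 100, 102 and 269 reads in the KO-labelled libraries, against 421, 85, 206 and 115 reads in the WT libraries. The chromosome row held 115, 61, 65 and 101 reads in the KO-labelled libraries, against 1439, 222, 928 and 398 reads in the WT libraries. The alternate row therefore took 35.03% to 72.7% of the *crx* reads in the KO-labelled libraries, against 18.2% to 27.7% in the WT libraries. Tested on its own, the alternate row had a log2 fold change of -0.40 ± 0.48 (SE; limma, adjusted p = 0.633).

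With both rows added, *crx* had 5.34, 4.65, 5.12 and 11.6 FPKM in the KO-labelled libraries, against 50.6, 8.65, 32.2 and 14.0 FPKM in the WT libraries. The groups then overlapped, since replicate 4 of the KO-labelled group lay above replicate 2 of WT. The log2 fold change was -1.69 ± 0.49 (SE; 95% interval -2.78 to -0.60), and the adjusted p of 0.0534 (limma) missed the threshold. Of 7 other genes with rows both on chromosome 5 and on contigs near *crx*, the alternate shares of *hnrnpl*, *kptn*, *h3f3c*, *gjd1a* and *tagln2* overlapped between the groups. At lower coordinates than *crx*, *kptn* had 23.6% to 59.0% of its reads on the alternate row in the KO-labelled libraries, against 21.4% to 34.7% in WT, and *hnrnpl* had 36.2% to 44.4%, against 30.8% to 37.8% in WT. For *nfkbib* the ranges were apart in the opposite direction to *crx*, with 30.5% to 54.9% in the KO-labelled libraries, against 58.6% to 70.4% in WT. *lrch2* had 0 alternate and 2 chromosome reads in the KO-labelled libraries, against 68 alternate and 0 chromosome reads in WT. Whether the fish of the 2 groups carry different versions of this region, and what part that has in the result for *crx*, was not tested.

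**Figure D2:**
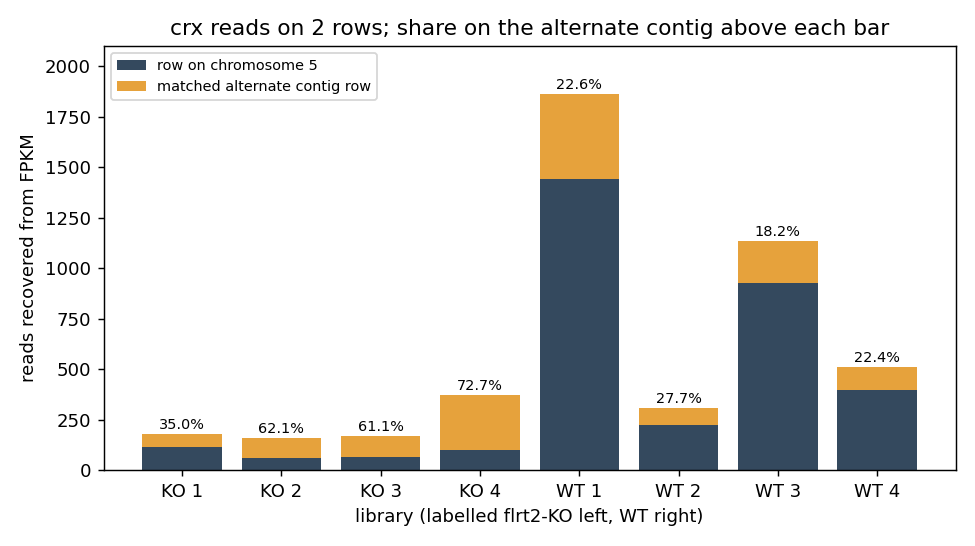
Reads of *crx* recovered from FPKM in each library, stacked by the row on chromosome 5 (dark) and the matched alternate contig row (orange), with the libraries labelled *flrt2*-KO left and WT right and the alternate share above each bar. The alternate share is 35.03% to 72.7% in the KO-labelled libraries and 18.2% to 27.7% in the WT libraries, and the whole bar of replicate 4 of the KO-labelled group is taller than that of replicate 2 of WT.

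The 3 Otx mRNAs together made up 61.6 to 90.7 FPKM in the KO-labelled libraries, against 113.5 to 281.1 FPKM in the WT libraries. *otx2b* took 76.4% to 87.1% of this sum in the KO-labelled libraries, against 63.5% to 78.9% in WT, and *crx* took 2.86% to 4.35%, against 5.51% to 13.9% in WT. The log2 ratio of *crx* to *otx2b* averaged -4.36 in the KO-labelled libraries and -2.88 in the WT libraries, a difference of -1.48 (exact permutation test, two-sided, p = 0.0286, 0.0857 after adjustment over the 3 pairs). The difference was -0.84 for *otx5* to *otx2b* (exact permutation p = 0.0571, adjusted 0.0857) and -0.64 for *crx* to *otx5* (exact permutation p = 0.114, adjusted 0.114). None of the 3 passed after adjustment, and the ratios use the chromosome row of *crx* alone.

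Among the nuclear receptors, *rorb* had the smallest adjusted p of the 10 factors. In the mouse, Rorb acts early in photoreceptor precursors and is needed for rod fate, and it is also made in other retinal cells. *rorb* (ENSDARG00000033498, chromosome 5, 25366677 to 25406807, minus strand) had 33.3, 32.8, 21.0 and 27.8 FPKM in the KO-labelled libraries, against 90.1, 59.6, 81.4 and 52.0 FPKM in the WT libraries. The lowest WT library lay well above the highest KO-labelled one. In limma *rorb* had a log2 fold change of -1.27 ± 0.20 (SE; 95% interval -1.71 to -0.83; limma, adjusted p = 0.00188).

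*nr2e3* (ENSDARG00000045904, chromosome 25, 22274642 to 22278655, plus strand) encodes a receptor that keeps cone genes off in mouse rods. It had 0.798, 0.299, 0.387 and 1.90 FPKM in the KO-labelled libraries, against 3.598, 1.78, 4.93 and 5.85 FPKM in the WT libraries. These are low levels, 96 reads in the 4 KO-labelled libraries and 508 in the 4 WT libraries, and replicate 4 of the KO-labelled group overlapped replicate 2 of WT. Its log2 fold change was -1.80 ± 0.40 (SE; 95% interval -2.68 to -0.92; limma, adjusted p = 0.0121).

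*thrb* (ENSDARG00000021163, chromosome 19, 17514631 to 17658253, minus strand) encodes the thyroid hormone receptor that directs red cones in zebrafish. It had 8.10, 7.19, 6.13 and 10.1 FPKM in the KO-labelled libraries, against 19.1, 12.1, 19.7 and 11.8 FPKM in the WT libraries. The groups were apart, but replicate 4 of the KO-labelled group and replicate 4 of WT were close. The log2 fold change was -0.93 ± 0.21 (SE; 95% interval -1.39 to -0.47; limma, adjusted p = 0.0123). With libraries of the same title ending as a replicate block, it was -0.71 and the adjusted p of 0.0804 (limma) missed the threshold. The block fold change comes from the 3 pairs of like ending alone, since replicate 3 of each group has no partner. Replicate 3 held the highest WT value and the lowest KO-labelled value of *thrb*. The block fit called 6 of the 9 tested factors lower and 0 higher, beside 4.72% and 5.4% of all rows.

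*nrl* was the only tested factor with a positive fold change. Nrl is the leucine zipper protein that sets rod fate in the mouse. *nrl* (ENSDARG00000100466, chromosome 20, 661037 to 673579, plus strand) had 3.44, 6.06, 6.28 and 4.98 FPKM in the KO-labelled libraries, against 1.95, 4.77, 3.097 and 3.72 FPKM in the WT libraries. The groups overlapped, with replicate 1 lowest in each of them. The log2 fold change of 0.57 ± 0.25 (SE; 95% interval 0.01 to 1.13) had an unadjusted p of 0.0453 and an adjusted p of 0.161 (limma), and was not called.

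*six7* is a homeobox gene known in zebrafish for its part in green opsin genes and in cone numbers. Its log2 fold change was close to that of the chromosome row of *crx* (-2.49), which was -1.69 with both rows added. *six7* (ENSDARG00000070107, chromosome 7, 7401692 to 7420301, minus strand) had 1.21, 0.707, 0.447 and 2.73 FPKM in the KO-labelled libraries, against 17.8, 2.86, 10.7 and 7.27 FPKM in the WT libraries. Replicate 4 of the KO-labelled group and replicate 2 of WT nearly met, while the other libraries were far apart. In limma *six7* had a log2 fold change of -2.43 ± 0.51 (SE; 95% interval -3.56 to -1.30; limma, adjusted p = 0.00938).

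*prdm1a* (ENSDARG00000002445, chromosome 16, 7430998 to 7443388, minus strand) encodes a zinc finger repressor whose mouse counterpart keeps precursors on the photoreceptor path and away from bipolar fate. It had 1.34, 2.36, 1.74 and 2.92 FPKM in the KO-labelled libraries, against 9.99, 1.53, 4.65 and 3.86 FPKM in the WT libraries. Replicate 2 of WT lay within the KO-labelled values, and the other WT libraries lay above all of them. The log2 fold change of -0.89 ± 0.42 (SE; 95% interval -1.82 to 0.04; limma, adjusted p = 0.192) was not called. Without replicate 2 of WT, the lowest of its group, it was -1.29 and called (limma, adjusted p = 0.0247). Without replicate 1 of WT, the highest, it was -0.50 and not called (limma, adjusted p = 0.397).

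*tbx2b*, a T-box gene that favours UV cones over rods in zebrafish, was read almost wholly on an alternate contig. Its row on chromosome 15 (ENSDARG00000006120, 27364394 to 27371340, plus strand) held 0 reads in the KO-labelled libraries and 1 read in the WT libraries. The matched contig row held 944 reads in the KO-labelled libraries and 1189 in the WT libraries. It had 3.35, 6.81, 5.47 and 3.69 FPKM in the KO-labelled libraries, against 4.68, 5.46, 8.39 and 4.08 FPKM in the WT libraries. The groups overlapped through most of their range, and the log2 fold change of -0.21 ± 0.25 (SE; 95% interval -0.77 to 0.35; limma, adjusted p = 0.639) was not called. With contig reads added to their genes, 10 factors were tested, and 6 were lower and 0 higher, beside 5.07% and 6.04% of all 19512 rows.

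**Figure D3:**
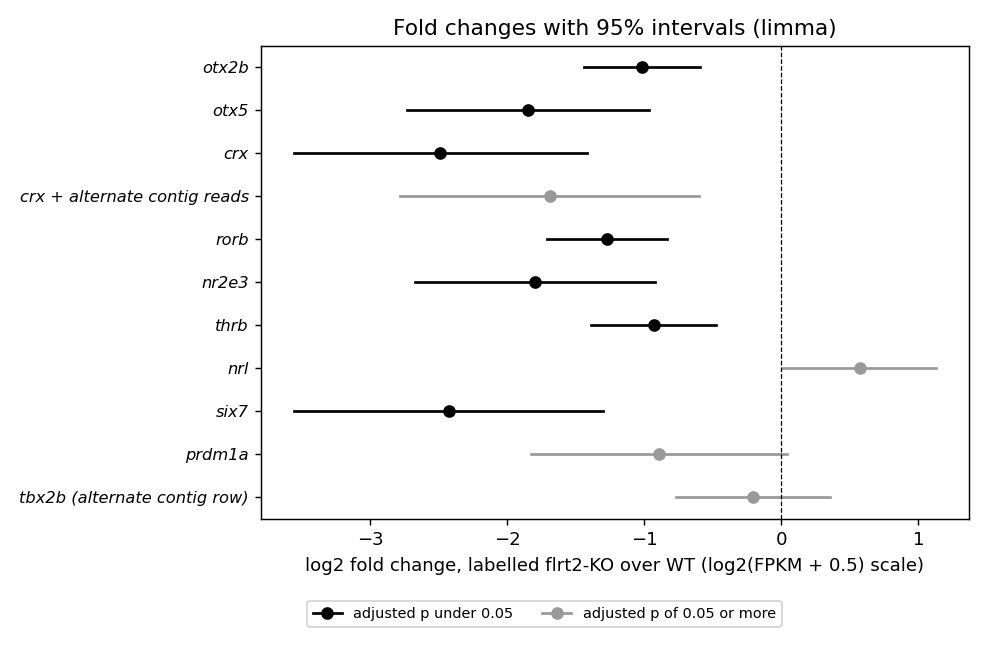
Log2 fold change of each factor, libraries labelled *flrt2*-KO over WT, with its 95% interval from limma. Points are black where the adjusted p was under 0.05 and grey otherwise. Shown are the chromosome rows of the tested factors, *crx* with its contig reads added (-1.69), and the contig row of *tbx2b*. The 7 called factors lie between -2.49 and -0.93, *nrl* lies at 0.57, and the interval of *prdm1a* reaches 0.04.

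By mean level in the KO-labelled libraries the factors ran *otx2b*, *rorb*, *otx5*, *thrb*, *nrl*, *crx*, *prdm1a*, *six7* and *nr2e3*, where only *otx2b* and *rorb*, and *rorb* and *otx5*, had ranges apart from each other. In the WT libraries the order was *otx2b*, *rorb*, *otx5*, *crx*, *thrb*, *six7*, *prdm1a*, *nr2e3* and *nrl*, and the ranges of all neighbours overlapped. Within single libraries, *otx2b* over *rorb*, *rorb* over *otx5*, *otx5* over *crx*, *thrb* over *six7* and *six7* over *prdm1a* held in all 4 WT libraries. The other WT steps held in 1 to 3 of them. In the KO-labelled group, *otx2b* over *rorb*, *rorb* over *otx5*, *prdm1a* over *six7* and *six7* over *nr2e3* held in all 4 libraries. The other KO-labelled steps held in 3 of them. *nrl*, last of the 9 by mean level in WT, stood above *crx*, *prdm1a*, *six7* and *nr2e3* in the KO-labelled mean order. These orders use the chromosome row of *crx* alone. With both rows *crx* averaged 6.67 FPKM in the KO-labelled libraries, above *nrl* at 5.19 FPKM, and 26.4 FPKM in the WT libraries.

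The factors also varied together between libraries of the same group. Deviations of each library from its group mean were correlated over the 8 libraries, as a description. All 28 pairs among the 8 tested factors other than *nrl* had a positive Pearson r, from 0.06 (*nr2e3* and *rorb*) to 0.97 (*crx* and *otx2b*), with a median of 0.78. The 6 pairs among *crx*, *otx5*, *otx2b* and *six7* had r of 0.88 to 0.97. Every r with *crx*, here and below, uses its chromosome row alone. All 8 pairs with *nrl* were negative, from -0.90 to -0.39. The deviations of *crx* ran from -1.32 to 1.23 in WT and from -0.41 to 0.40 in the KO-labelled libraries. Those of *prdm1a* ran from -1.21 to 1.17 in WT and from -0.45 to 0.44 in the KO-labelled libraries. For these genes r therefore rests mostly on the WT libraries.

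This pattern can be read from the WT libraries directly. In *crx*, *otx5*, *otx2b*, *six7* and *prdm1a*, 5 of the 9 tested factors, replicate 1 was highest, followed by 3, 4 and 2, and in *nrl* the order was the exact inverse. In the KO-labelled group replicate 4 was highest in 6 of the 9 factors. There replicate 1 was highest for *crx* and *rorb*, but lowest for *prdm1a* and *nrl*. These orders use the chromosome row of *crx* alone. With both rows of *crx* added, its WT order was the same, and replicate 4 (11.6 FPKM) was highest in the KO-labelled group. The points of each correlation share their library, depth and pool of eyes, and their number is small.

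**Figure D4:**
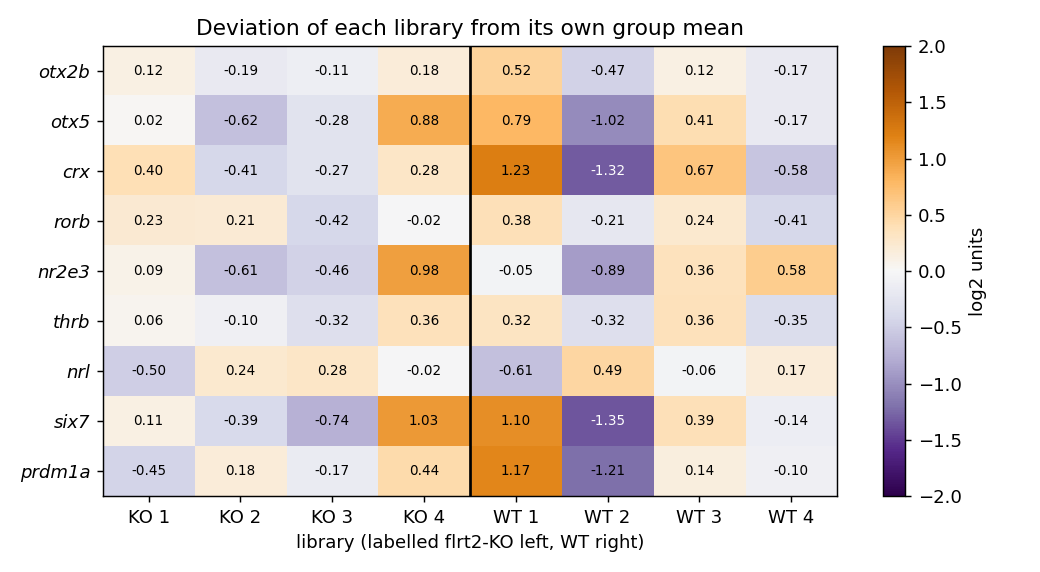
Deviation of each library from its own group mean on the log2(FPKM + 0.5) scale (log2 units, orange above and purple below the mean), for the 9 tested factors in rows and the 8 libraries in columns, labelled *flrt2*-KO left and WT right. In the WT columns replicate 1 is high and replicate 2 low for *crx* (1.23 and -1.32), *six7* (1.096 and -1.35) and *prdm1a* (1.17 and -1.21), while *nrl* has the opposite signs (-0.61 and 0.49). *crx* is shown by its chromosome row alone.

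Among 14379 annotated genes compared in the same way, those most like the chromosome row of *crx* were *ahsa1b* (r = 0.99), *rogdi* (0.99), *si:ch211-117c9.5* (0.98), *SLC9B2* (0.97) and *gpm6aa* (0.97). Between the groups their own log2 fold changes were 0.33 for *ahsa1b*, -0.11 for *rogdi*, -0.85 for *si:ch211-117c9.5*, -1.14 for *SLC9B2* and -0.83 for *gpm6aa*. Only 3 genes had a higher r with *crx* than *otx2b* had, while 220 were above *six7*, 224 above *otx5*, 337 above *thrb*, 574 above *prdm1a*, 1146 above *rorb* and 2751 above *nr2e3*.

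The close relatives of the 10 factors were read from the same table. Of 24 relatives listed, 19 were tested, 2 were lower, 1 was higher and 16 were not called, with a median log2 fold change of 0.02. Over all rows tested, 7.37% were lower and 8.28% higher, the background for this list and for those below. *prdm1b*, the second *prdm1* gene of zebrafish, had 24.4, 17.3, 16.1 and 25.9 FPKM in the KO-labelled libraries, against 71.3, 48.5, 75.6 and 42.5 FPKM in the WT libraries. Its groups did not overlap, and its log2 fold change was -1.47 ± 0.22 (SE; limma, adjusted p = 0.0014). *six6b*, an eye field homeobox gene, was lower by a log2 fold change of -0.62 (limma, adjusted p = 0.0377). *six3a*, another eye field gene, was higher at 0.95 (limma, adjusted p = 0.0139), and with the reads of its contig row added it was -0.13 and not called (limma, adjusted p = 0.572). *six3b*, the most abundant relative by its mean over all 8 libraries, averaged 70.4 ± 13.5 FPKM in the KO-labelled libraries and 58.4 ± 5.03 FPKM in the WT libraries (SD, n = 4 each) and was not called. The other Otx genes, *otx2a* (log2 fold change 0.29; limma, adjusted p = 0.135) and *otx1* (0.20; adjusted p = 0.253), were not called either.

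Of 30 other regulators of photoreceptor development listed, 24 were tested, 4 were lower, 1 was higher and 19 were not called, with a median log2 fold change of -0.09. *insm1a*, a zinc finger factor of newborn neurons, averaged 135 ± 11.1 FPKM in the KO-labelled libraries and 241 ± 21.5 FPKM in the WT libraries (SD, n = 4 each; log2 fold change -0.83). *samd11* (-0.70) and *samd7* (-1.36), whose mouse counterparts silence genes in rods, and *neurod1* (-0.68), a proneural gene of photoreceptor progenitors, were the other lower genes. *samd7*, named because it completes the count, missed the threshold with contig reads added (limma, adjusted p = 0.0587). The higher gene was *nr2f1b* (0.62), an orphan nuclear receptor. *notch1a* was the most abundant after *insm1a*, with 89.7 ± 6.93 FPKM in the KO-labelled libraries and 74.5 ± 7.80 FPKM in the WT libraries (SD, n = 4 each), and was not called.

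The effector genes of photoreceptors were mostly below the filter at this age. Of 56 opsin, phototransduction and outer segment genes listed, 35 were below the filter, and of the 21 tested 1 was lower, 1 was higher and 19 were not called, with a median log2 fold change of -0.05. *pde6gb*, an inhibitory subunit of the photoreceptor phosphodiesterase, had 12.02, 10.5, 9.55 and 15.1 FPKM in the KO-labelled libraries, against 36.5, 13.0, 37.2 and 25.1 FPKM in the WT libraries. Replicate 2 of WT was again the lowest of its group, and the log2 fold change was -1.12 (limma, adjusted p = 0.0287). *gngt2a*, a cone transducin subunit, was higher at 1.21 (limma, adjusted p = 0.0217) with 54 reads in the KO-labelled libraries and 15 in the WT libraries, and with contig reads added it was -0.72 and not called (limma, adjusted p = 0.0679). *gnb1b*, a G protein subunit made in many cells and the most abundant gene of the list, averaged 92.2 ± 4.44 FPKM in the KO-labelled libraries and 90.5 ± 2.58 FPKM in the WT libraries (SD, n = 4 each).

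**Figure D5:**
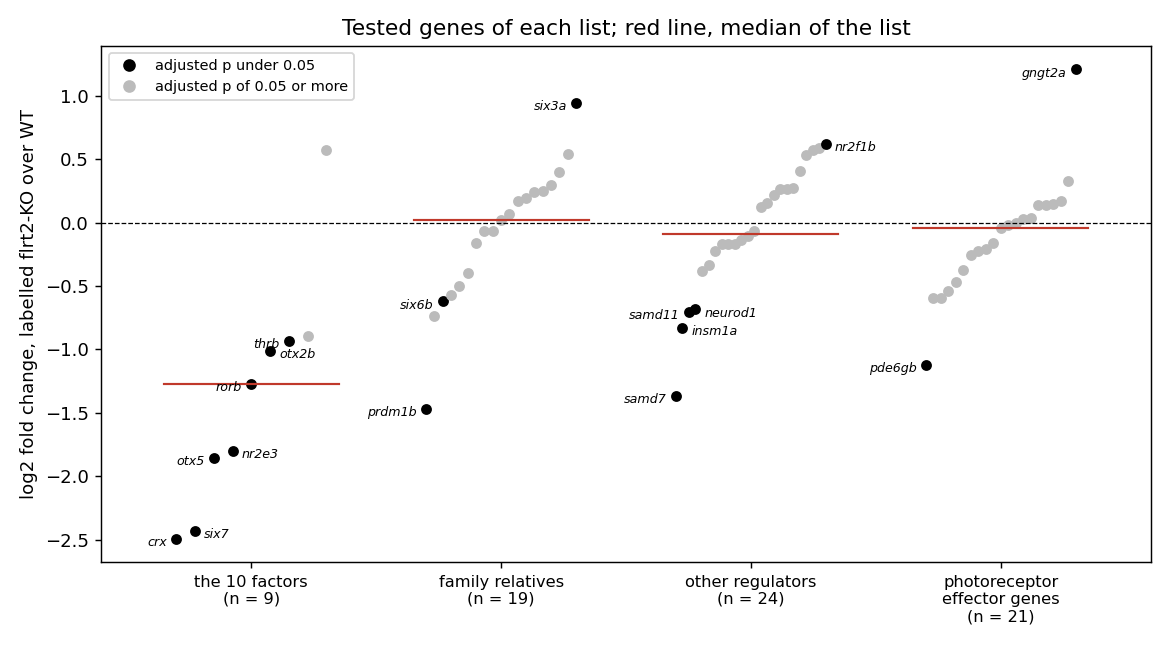
Log2 fold change, libraries labelled *flrt2*-KO over WT, of each tested gene of 4 lists (the 10 factors, their family relatives, other regulators of photoreceptor development and photoreceptor effector genes), black where the adjusted p was under 0.05 (limma), with a red line at the list median. The medians are -1.27, 0.02, -0.09 and -0.05, and 7 of 9, 3 of 19, 5 of 24 and 2 of 21 points are black.

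Markers of other cells were read in the same libraries. Of 9 tested retina markers, 2 were lower (*atoh7* and *six6b*). The retina sums were 367 to 464 FPKM in the KO-labelled libraries, against 389 to 537 FPKM in WT. The chromosome row of *hmx4* held 0 reads in all libraries. Of 12 pigment epithelium markers 0 were called (1 lower at an unadjusted p under 0.05, and 0 called by limma-voom), with sums of 492 to 607 FPKM, against 426 to 612 FPKM in WT. Of 11 tested brain markers 0 were called (1 lower and 1 higher at an unadjusted p under 0.05, and 1 lower and 1 higher by limma-voom), with sums of 169 to 194 FPKM, against 142 to 190 FPKM in WT. The ranges of both tissues, which also make Otx mRNA, overlapped between the groups. The pineal organ shares *crx* and *otx5* with the retina. Of its 7 tested markers 0 were called (0 at an unadjusted p under 0.05 and 0 by limma-voom). The pineal sums were 9.39 to 12.8 FPKM in the KO-labelled libraries, against 7.54 to 16.5 FPKM in WT. The chromosome row of *gngt1* held 0 reads. Its matched contig row, left out of these sums, held 4 reads in the KO-labelled libraries and 51 in the WT libraries.

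The sums of blood markers, and of yolk and liver markers, lay apart between the groups, while the lens and muscle sums overlapped. Of 7 tested blood markers 4 were lower, with sums of 466 to 1208 FPKM in the KO-labelled libraries, against 1439 to 2264 FPKM in WT. Of 8 tested yolk and liver markers 6 were lower, with sums of 23.9 to 47.9 FPKM, against 63.3 to 85.1 FPKM in WT. The chromosome row of *vtg2* held 0 reads. Lens markers had 3 of 11 lower, with sums of 2699 to 4158 FPKM, against 2601 to 4435 FPKM in WT. Muscle markers had 1 of 5 lower, with sums of 14.1 to 33.7 FPKM, against 12.3 to 25.6 FPKM in WT. The chromosome row of *mylpfa* held 0 reads. Within WT the blood sums were 1507, 1439, 1758 and 2264 FPKM in replicates 1 to 4, the yolk and liver sums 83.9, 63.3, 68.0 and 85.1 FPKM, and the pineal sums 16.5, 7.54, 11.04 and 13.4 FPKM. The muscle sums in replicates 1 to 4 were 25.6, 12.3, 24.9 and 20.7 FPKM. All of these sums were lowest in replicate 2, as were *crx*, *otx5*, *otx2b*, *six7* and *prdm1a*. The pineal and muscle sums were also highest in replicate 1, as these factors were. From high to low the muscle sums ran through replicates 1, 3, 4 and 2, the same order as these factors. The lens and pigment epithelium sums were instead lowest in replicate 1 (2601 and 426 FPKM), as *nrl* was. The brain sum was lowest in replicate 3 (142 FPKM), and the retina sum in replicate 4 (389 FPKM). In the KO-labelled group the lens sum (2699 FPKM) and *nrl* were also lowest in replicate 1. The part of blood, yolk and liver, pineal, muscle, lens, pigment epithelium and brain RNA in the results for the 10 factors was not tested.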

How the data were processed

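Gene rows of 1 table were used, in FPKM. Per the methods of the study and the submitters' processing notes, the authors filtered the reads, aligned them to GRCz11 (HISAT2 2.0.5), assigned them to genes (featureCounts 1.5.0-p3), and deposited the FPKM of each library. The methods name a NEBNext Ultra kit and the labels a TruSeq kit. Values multiplied by gene length were whole reads in 100% of cases (tolerance 1e-06). The library total implied by FPKM was 0.930 to 1.07 times the sum of these reads, for a reason not given in the sources used here. DESeq2 was used by the authors, and no result of it was used here.

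The 21012 rows that reached 0.5 FPKM in 4 or more of the 8 libraries were tested on log2(FPKM + 0.5), which understates changes of low genes, with limma 3.58.1 in R 4.3.3 (intensity trend, robust prior) and Benjamini-Hochberg adjustment over all of them. Tests of simulated data for 4 against 4 libraries recovered 77.5% of 200 changed genes, with 5.49% false calls. The simulation gave all genes the same dispersion and no shift shared between genes of a library. These rates need not hold for factors as variable as *crx* and *six7*. Single values were tested by two-sided exact permutation (scipy 1.17.1). Rows of alternate contigs were matched to a gene by protein description, chromosome number, a distance within 0.2 Mb and strand, the last added after the data were seen. Replicates were numbered in the order of deposit. In 3 pairs of 1 library from each group, the titles end alike. Their deviations from the group means correlated at 0.106 to 0.141, beside -0.22 to 0.11 in the 13 other pairs, of which 2 were over 0.1. The ending was therefore used as a replicate block in an alternative fit. Replicate 3 of each group has no partner there and adds nothing to the fold changes of that fit. Named were the 10 factors, *flrt2*, up to 4 called genes with the smallest p and the 2 most abundant genes of each photoreceptor-related list, and the 5 genes most like *crx*. The members and lists were chosen with earlier results of these data known. Sequences of the genes were not used here, and 1 gene of the lists is not reported by name.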

Additional observations from a re-analysis of the deposited data

How the results depend on the processing

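Each fold change was recomputed under up to 22 alternatives: pseudocounts of 0.1 and 1, a filter at 1 FPKM and none, median-ratio, quantile and equal-sum scaling, limma without trend or robust prior, array quality weights, the replicate block, limma-voom on recovered reads, contig reads added, annotated chromosome genes alone, a fold threshold, and leaving out each library in turn. No factor changed direction. *otx5*, *otx2b*, *nr2e3*, *rorb* and *six7* passed the threshold in all 22, with adjusted p (limma) of at most 0.0387 across these 5, and *nrl* (0.37 to 0.74) in none. The count of lower factors was 7 to 8 when 1 library was left out, and 0 were higher. *crx* ranged over -2.93 to -1.69 and missed the threshold with contig reads added. *thrb* missed it under the replicate block, which compares 3 pairs of libraries, and under the fold threshold. The block changed no other call among the factors. Over all rows, the counts of lower and higher calls were 1548 and 1740 as reported, 992 and 1134 with the replicate block, 989 and 1179 with contig reads added, and 898 and 1034 among 16575 annotated rows. Lower calls past a log2 fold change of -1 numbered 703. Equal column sums moved the median of all rows to -0.07. No library of any group lay far enough from the others of its group, for the 22 groups of 4 values tested, to be listed for a closer look. Levels under about 1 FPKM rest on few reads, as in *nr2e3*.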

Other observations

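*rho* and *foxq2* were below the filter, with reads in most WT libraries and few in KO-labelled ones. The genes named here were chosen after their values were seen and were not tested. *rho*, the rod opsin gene, had 0, 0, 0 and 1 reads in the libraries labelled *flrt2*-KO, against 57, 0, 20 and 9 reads in the WT libraries. *foxq2*, a forkhead gene of zebrafish blue cones, had 0, 3, 0 and 1 reads in the KO-labelled libraries, against 38, 0, 13 and 14 reads in the WT libraries. Replicate 2 of WT, which had the lowest level of *crx*, *otx5*, *otx2b* and *six7* in its group, was also the lowest WT library for both of these genes. *pde6b*, a phosphodiesterase subunit gene of rods, had its most reads in that library, with 12, 15, 6 and 16 reads in the KO-labelled libraries, against 30, 65, 33 and 33 reads in WT. Not all listed genes below the filter were lower in the KO-labelled libraries. There *gucy2f* had 153 reads, against 124 in WT, *ikzf1* had 62, against 35, and *opn1sw1* had 9, against 1.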
